A study of Mus musculus with 24 samples.

Results

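The genes described here are 8 genes of fatty acid synthesis and desaturation, Srebf1, Insig1, Acly, Acaca, Me1, Fasn, Scd1 and Scd2, measured in whole lungs of inbred mice. Every probe set annotated to one of these symbols was taken, which gave 15 of the 22690 probe sets on the array and covered 7 of the 8 genes. No probe set was annotated to Insig1, so it was not analysed here. Of these, 6 genes had a probe set among the brighter 60% and entered the comparisons across 8280 genes. The 1 probe set of Acaca averaged 174 signal units, lay under that filter and was tested only in a fit over all 22626 probe sets other than controls.

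Lungs came from male mice of 8 weeks, obtained from the Jackson Laboratory and left untreated, and total RNA was hybridised to Affymetrix Mouse 430A arrays. The 12 groups, with 2 arrays each, were the F1 hybrid of the 2 progenitors (BXHF1, here F1), 9 BXH recombinant inbred (RI) strains (BXH2, BXH4, BXH6, BXH7, BXH8, BXH9, BXH10, BXH14 and BXH19), and the progenitors C3 (C3H/HeJ) and B6 (C57BL/6J). An RI strain is an inbred line fixed for a mosaic of both progenitor genomes, so the 9 lines re-use the same 2 sets of alleles. The design text gives 2 lung harvests per strain, but the labels do not say that each array came from a separate animal, so p-values measure the spread between these arrays, which may be technical. The lung is a mixture of cells, and in such bulk RNA fewer cells of a type and less RNA per cell cannot be told apart.

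Lipogenesis turns surplus carbon into fatty acids. Acly, ATP citrate lyase, splits cytosolic citrate to acetyl-CoA, Acaca, acetyl-CoA carboxylase, makes malonyl-CoA from it, and Fasn, fatty acid synthase, joins these units into palmitate with NADPH that Me1, cytosolic malic enzyme, helps to supply. Scd1 and Scd2, stearoyl-CoA desaturases, put a double bond into the saturated chain. Srebf1 encodes the transcription factor SREBP, which drives these genes once it is released from the endoplasmic reticulum, and Insig1 encodes a protein that holds it there. In the lung the alveolar type 2 cell uses the pathway to make the saturated phosphatidylcholine of surfactant, and fat cells use it to store triglyceride.

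Fasn and Acly were the pair with the most similar pattern over the strains, as given below, and the 250 bases before the start site of each are shown so that the letters upstream of both genes can be compared. They are from RefSeq on GRCm38.p6, 5′ to 3′ along the gene's strand. Capitals mark matches on either strand to the CCAAT box (CCAAT) or the GC box (GGGCGG). Fasn lies at chr11:120824548-120824797 and Acly at chr11:100528001-100528250, both on the minus strand.
Fasn: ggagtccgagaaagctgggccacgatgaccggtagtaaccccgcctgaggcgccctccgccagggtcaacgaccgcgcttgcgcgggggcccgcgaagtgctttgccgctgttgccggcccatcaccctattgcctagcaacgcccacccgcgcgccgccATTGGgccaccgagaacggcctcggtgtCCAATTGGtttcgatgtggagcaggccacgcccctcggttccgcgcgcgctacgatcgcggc
Acly: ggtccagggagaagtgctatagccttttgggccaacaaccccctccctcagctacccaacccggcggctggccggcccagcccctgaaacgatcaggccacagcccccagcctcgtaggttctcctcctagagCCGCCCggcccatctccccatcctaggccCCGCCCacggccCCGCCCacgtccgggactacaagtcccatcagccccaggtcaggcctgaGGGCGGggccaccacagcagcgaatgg

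The Fasn window held 3 CCAAT matches, whose first bases lay at -90, -62 and -59 from the start site, the last 2 overlapping, and no GC box. The Acly window held 4 GC boxes, at -117, -88, -76 and -27, and no CCAAT match. The search also covered the E-box CACGTG and the stretch TCACCCC of the sterol regulatory element, on both strands, and neither was found in these windows. Among 32851 windows of the same length, 33.8% held a CCAAT match, 32.7% a GC box, 6.02% the E-box and 4.31% the sterol stretch. The windows of Fasn and Acly shared no exact match to any of the 4 motifs searched. Such a window was found for 6 of the 8 genes, and the Srebf1, Acaca and Me1 windows held no E-box or sterol stretch either, while the Insig1 window held 1 E-box and no sterol stretch. Fasn, Acly, Acaca and Srebf1 all lie on chromosome 11, Scd1 and Scd2 lie on chromosome 19 with 1 protein-coding gene between them, Me1 lies on chromosome 9 and Insig1 on chromosome 5.

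Values are linear signal intensities, comparable between arrays for 1 probe set but not between probe sets. The mean signal, leaving out 2% of probe sets at each end, was 500.1 on all 24 arrays, and the 2 arrays of a strain correlated at 0.949 to 0.975 against 0.909 to 0.969 for arrays of different strains. Surfactant genes of the alveolar type 2 cell were strong on every array, with Sftpc, surfactant protein C, between 9579 and 20160. The mean log2 signal of 15 measured type 2 cell markers, of 17 listed, stayed within 12.33 to 12.74. Other tissues were also present in some samples. The mean log2 signal of 10 measured adipose markers, of 18 listed, ran from 8.89 to 10.55 over the arrays, and that of 12 skeletal muscle markers, of 15 listed, from 6.55 to 11.73. The adipose markers did not all move alike. In BXH9 against the other RI strains, the markers Cox8b, Cox7a1 and Adipoq were higher by 1.41, 1.52 and 0.58 log2 units. In BXH8 the same markers, in that order, were higher by 0.87, 0.51 and 2.06. The median difference of the muscle list was 3.29 in BXH9 and 3.10 in BXH8. Whether muscle also contributed to the adipose mean was not tested. The first BXH8 array alone carried a high signal of the liver gene Alb, albumin, at 3846 against at most 281 elsewhere.

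None of the 6 tested lipogenic genes was called different across the 12 strains. In limma's moderated F test, 0 of the 6 tested genes passed an adjusted p of 0.05 over the 12 strains, where 10.5% of all 8280 genes did, and 3 of 6 (Fasn, Scd2 and Me1) had an unadjusted p under 0.05, as 2120 of all genes had. Among the 9 RI strains alone 0 of 6 passed, against 9.32% of all genes, and 3 of 6 (Scd1, Scd2 and Me1) had an unadjusted p under 0.05, as 2062 of all genes had. The range of strain means was 0.37 log2 units for Srebf1, 0.46 for Me1, 0.47 for Acly, 0.53 for Scd1, 0.64 for Scd2 and 0.93 for Fasn, where the median over all genes was 0.54. For Srebf1 and Acly the SD between strain means, 0.12 and 0.15, was below the SD within strains, 0.17 and 0.16.

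**Figure D1:**
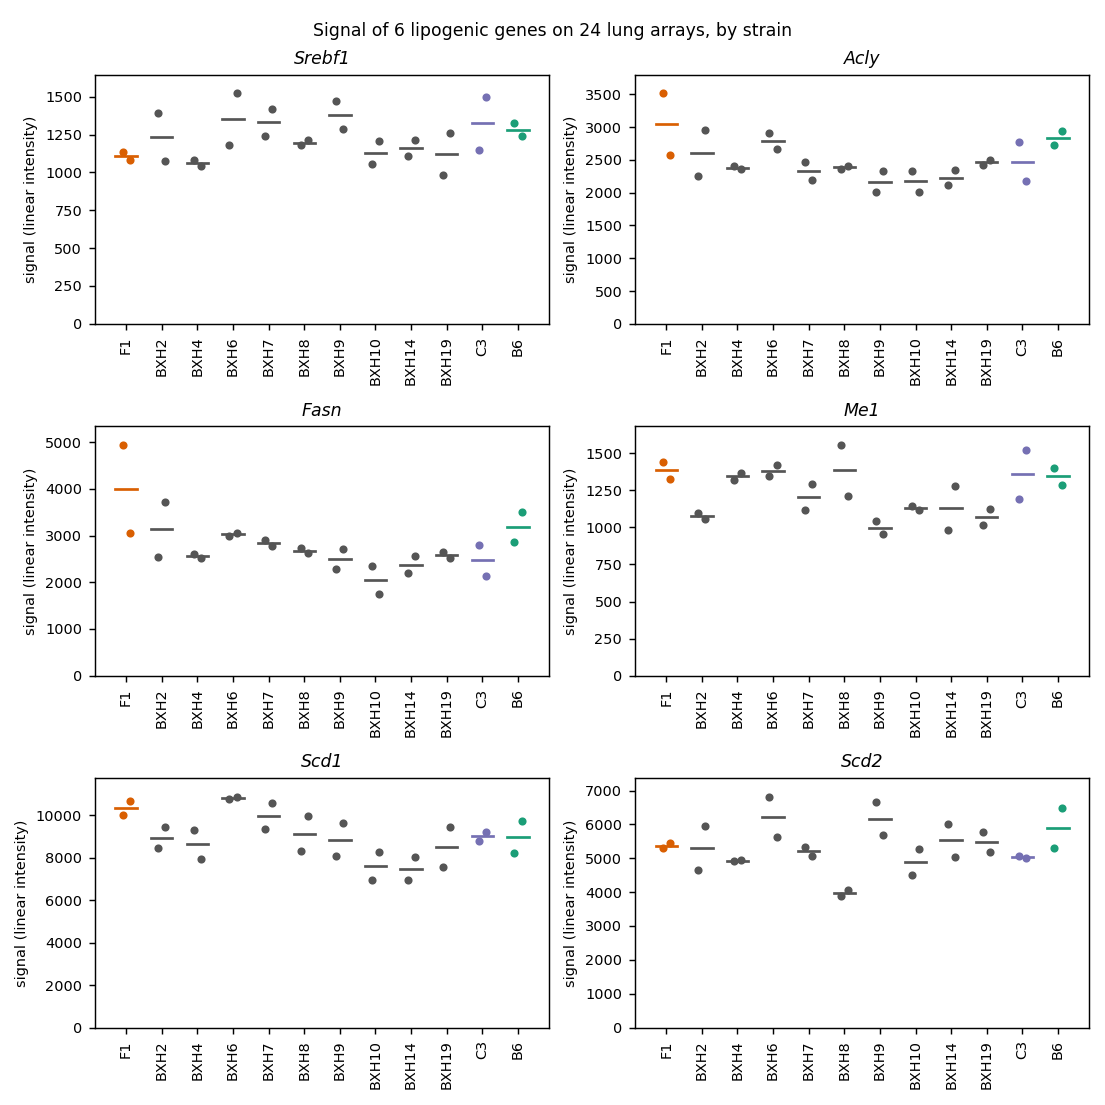
Signal (linear intensity, axes from 0) of the 6 tested genes in each strain, with 1 point for each of the 2 arrays and a bar at their mean. Most strains overlap their neighbours, Fasn is highest on 1 F1 array at 4943, and both BXH8 arrays are the lowest for Scd2.

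Srebf1, the regulator, had the narrowest range of strain means of the 6 tested genes. Its probe set 1426690_a_at read 981 to 1524 over the 24 arrays with a median of 1212. BXH9 had the highest mean, 1381 ± 131, and BXH4 the lowest, 1064 ± 26 (SD, n = 2 each), and within this order each strain except F1 overlapped the next lower one. The moderated F test gave an adjusted p of 0.587 over 12 strains. In F1 the 2 arrays gave 1132 and 1084, against 1147 and 1499 in C3 and 1325 and 1239 in B6. Both F1 arrays lay below all 4 progenitor arrays, and the difference from the progenitors' mean, -0.22 log2 units, was not called.

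Acly, which supplies acetyl-CoA, was read by 5 probe sets, of which 2, 1438389_x_at and 1439445_x_at, stayed at or near 0 on every array, between 0.1 and 38.4. The brightest set, 1451666_at, read 3522 and 2578 in F1, against 2776 and 2176 in C3 and 2735 and 2942 in B6. In the RI strains it ran from 2013 in BXH10 to 2957 on the second BXH2 array. The F1 arrays straddled the B6 arrays, and only the first F1 array exceeded every other array. Strain means followed one another without a gap, as every strain overlapped the next lower one. The adjusted p over 12 strains was 0.3. Strain means of this set correlated with those of 1425326_at at r = 0.82 and rho = 0.76 (n = 12, permutation p adjusted over 8 pairs of probe sets 0.00476 and 0.0158) and with those of 1439459_x_at at r = 0.55 and rho = 0.54, the second pair not called.

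Acaca, which makes malonyl-CoA, was read by 1 probe set, 1427595_at, at 106 to 298 on the 24 arrays, with a mean at the 39.9th percentile of all probe sets. C3 gave 119.7 and 113.1, against 232.9 and 293.5 in B6. The progenitors did not overlap, both C3 arrays lying under both B6 arrays, and C3 had the lowest and B6 the highest strain mean. The difference of -1.07 log2 units had an adjusted p of 0.158 in limma's fit over all probe sets, where 1.18% of probe sets were called for C3 minus B6. The highest single Acaca value, 298.3, came from the first F1 array, whose partner gave 139.

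Me1, a source of NADPH, was called on 1 of its 2 probe sets, and the difference between the sets was not tested. The brighter, 1430307_a_at, read 956 to 1557 with a median of 1248 and did not pass over the 12 strains (limma's moderated F, adjusted p = 0.146). The dimmer, 1416632_at, was the 1 lipogenic probe set of 15 that passed over the 12 strains, with an adjusted p of 0.0354, where 5.48% of all 22626 probe sets passed. On it BXH8 gave 925 and 1003, against 325 to 897 with a median of 560 on the 16 arrays of the other RI strains. Both BXH8 arrays lay above all of those 16. The difference was 0.75 log2 units (SE 0.16, limma's fit over all probe sets, adjusted p = 0.0365), where 0.765% of probe sets were called in either direction. Outside that contrast the dimmer set read 962 and 719 in B6, 960 and 799 in F1, and 594 and 715 in C3. The first B6 and the first F1 array thus lay above the first BXH8 array. The brighter set gave 1557 and 1213 in BXH8, against 956 to 1418 with a median of 1121 in the other RI strains, and the groups overlapped. Its difference, 0.24 (SE 0.11), had an adjusted p of 0.44 in the fit over genes. The call of the dimmer set in BXH8 ended in 14 of 32 alternatives, with adjusted p from 0.00571 to 0.439, and those included leaving out either BXH8 array (0.239 without the first and 0.439 without the second) and a fit with the adipose markers as a covariate (0.365). The difference itself was 0.81 without the first BXH8 array, 0.69 without the second and 0.77 with the adipose covariate. With the muscle markers as a covariate it was 0.94 and was called (adjusted p = 0.0479). Its call over the 12 strains ended in 18 of the 32, with adjusted p up to 0.117.

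Fasn, the synthase itself, had the widest range of strain means, wider than 87.4% of genes. Its probe set 1423828_at read 4943 and 3046 in F1, against 2795 and 2140 in C3 and 2872 and 3509 in B6. In the RI strains the arrays gave 2536 and 3729 in BXH2, 2596 and 2520 in BXH4, 3002 and 3056 in BXH6, 2900 and 2774 in BXH7, and 2729 and 2618 in BXH8. They gave 2292 and 2711 in BXH9, 2351 and 1743 in BXH10, 2191 and 2559 in BXH14, and 2641 and 2523 in BXH19. F1 was highest and BXH10 lowest by mean, the first F1 array stood apart from the second, and the second F1 array lay within the range of B6. The F1 arrays averaged 3995 ± 1341 (SD, n = 2), so the spread between them was large. The difference of F1 from the mean of both progenitors was 0.48 log2 units (SE 0.18, 95% interval 0.10 to 0.86) with an adjusted p of 0.496 in limma's fit. For that contrast 0 of the 6 genes passed, where 0.0242% of all genes did, and Fasn alone of the 6 had an unadjusted p under 0.05, as 676 of all genes had.

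The height of Fasn in F1 rested on its first array. Without it the difference from the progenitors was 0.13, and without the second F1 array it was 0.82. The same array had the highest Ucp1 and Cidea signals, both genes of brown fat, among the 24. Ucp1, the uncoupling protein of brown fat, read 1831 on it and 11.7 on the second F1 array, against 7.2 to 10.1 on the 4 progenitor arrays. The next highest Ucp1 signal, 843, came from the second BXH2 array, which also had the second highest Fasn and Acly signals. The third highest, 248, came from the first BXH10 array, with Fasn at 2351, under the Fasn median of 2676. On its partner Ucp1 was 10.1 and Fasn 1743. The fourth, 170, came from the first BXH2 array, with Fasn at 2536, also under that median and below the 3729 of its partner. The next, 116, came from the second BXH14 array, with Fasn at 2559, also under the median, and its partner gave 6.4 and 2191. In each of F1, BXH2, BXH10 and BXH14 Fasn was thus higher on the array with more Ucp1. Cidea, a lipid droplet protein of brown fat, read 1120 on the first F1 array and 373 on the second BXH2 array. Fabp4, the fatty acid binding protein of fat cells, reached its highest value, 4734, on the first F1 array. The mean of the 10 adipose markers was 10.55 and 9.80 on the F1 arrays, against 9.01 to 9.65 on the progenitor arrays. A fit with that mean as a covariate gave a Fasn difference of 0.25. Epithelial lists were also above all 4 progenitor arrays in F1. The type 2 cell mean was 12.64 and 12.69 in F1, against 12.39 to 12.57, and the club cell mean 13.03 and 13.13, against 12.59 to 12.84. The part of these tissues in the F1 value was otherwise not tested.

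Between the progenitors, 0 of the 6 genes passed for C3 minus B6 in limma's fit, where 1.67% of all genes did, and 0 of 6 had an unadjusted p under 0.05, as 773 of all genes had. Fasn differed by -0.37 log2 units (95% interval -0.81 to 0.06, adjusted p = 0.652), Scd2 by -0.22 and Acly by -0.21, and Srebf1, Scd1 and Me1 by at most 0.03 in size. Single arrays moved these values. Fasn was -0.57 without the first C3 array and -0.18 without the second, and -0.52 and -0.23 without the first and the second B6 array. Acly was -0.38 without the first C3 array, -0.03 without the second and -0.15 without the second B6 array. Scd2 was -0.37 without the first B6 array and -0.08 without the second.

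**Figure D2:**
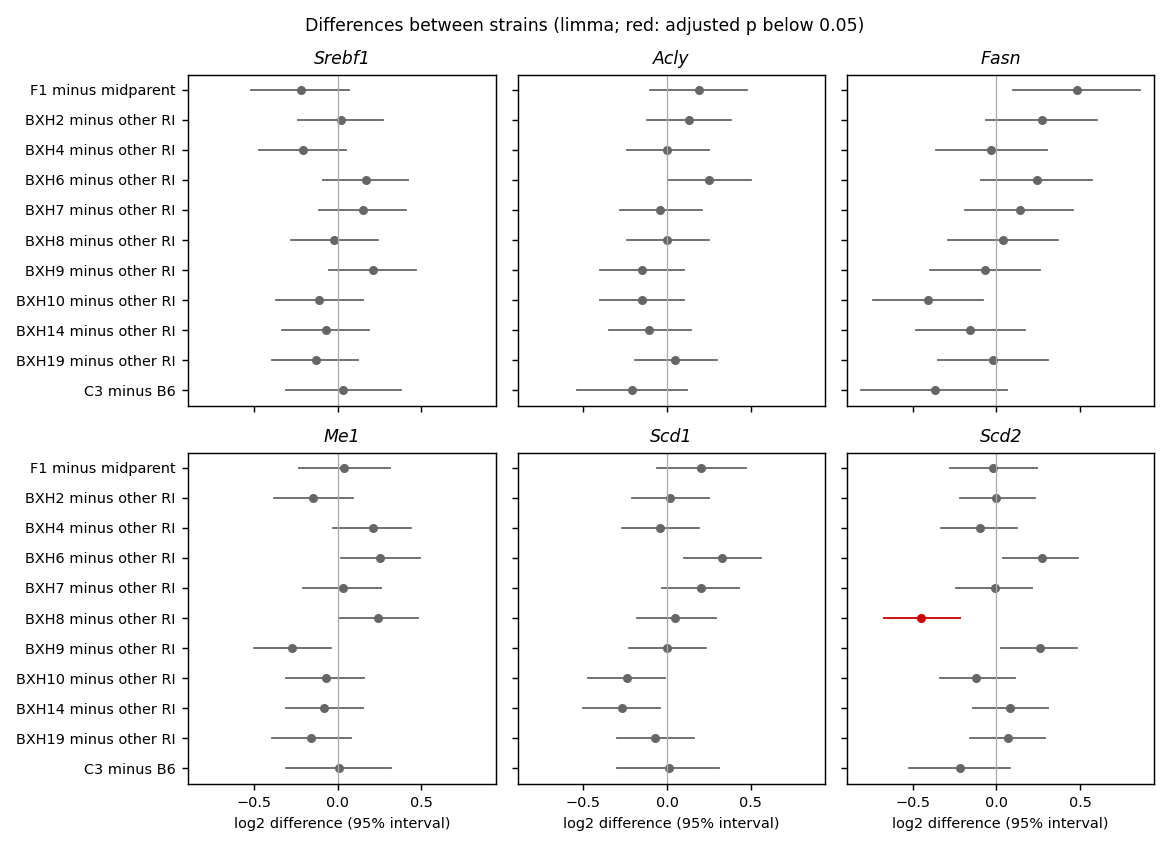
Log2 differences with 95% intervals for the 6 tested genes in F1 against the mean of both progenitors, in each RI strain against the mean of the other 8, and in C3 against B6. Scd2 in BXH8, at -0.45, is the only called difference.

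Scd1, a desaturase that the type 2 cell expresses strongly, read 6960 to 10882 on its brighter probe set 1415964_at, with a median of 9268. BXH6 gave 10770 and 10882, the highest 2 arrays of the 24, and BXH14 gave 6965 and 8022, the lowest strain mean. BXH6 was 0.33 log2 units above the mean of the other RI strains (SE 0.11, 95% interval 0.10 to 0.56, limma's adjusted p = 0.154), so the difference was not called. On the second probe set, 1415965_at, F1 had the highest mean, with 4249 and 3948, BXH6 followed with 3453 and 4501, and BXH9 was lowest with 1436 and 1640. The strain means of both sets correlated at r = 0.72 and rho = 0.77 (n = 12, adjusted permutation p = 0.0226 and 0.0158). Within strains r was 0.01 for the differences between the 2 arrays of a strain.

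No lipogenic gene passed in the RI strains other than BXH8. The count was 0 of 6 in BXH2 (1.17% of all genes called), BXH4 (7.63%), BXH7 (1.29%), BXH9 (2.08%), BXH10 (1.47%), BXH14 (1.23%) and BXH19 (1.22%) in limma's fit, and at an unadjusted p under 0.05 it was 2 in BXH9 (1296 of all genes), 2 in BXH10 (995), 1 in BXH14 (1079) and 0 in the others of these (886 to 1916). In BXH6, 4 of the 6 tested genes (Scd1, Scd2, Me1 and Acly) had an unadjusted p under 0.05, as 1021 of all genes had in either direction, all 4 higher in BXH6, while 0 passed the adjusted threshold, where 1.94% of all genes did. The median difference of the 6 genes in BXH6 was 0.25 log2 units, beside 0.01 over all genes. Marker lists moved in both directions in BXH6. Their median differences were 0.27 for the type 1 cell, 0.25 for the alveolar macrophage and 0.12 for the type 2 cell. They were -0.01 for the club cell, -0.29 for liver, -0.45 for adipose tissue and -1.80 for skeletal muscle. Of the 8 tested macrophage genes 1 was called higher and 1 lower in BXH6. The part of these tissues in the BXH6 values was not tested.

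Scd2, the second desaturase, gave the only call among the 54 comparisons of 6 genes in 9 RI strains, where 2.16% of all gene by strain comparisons were called. On 1415822_at BXH8 gave 3895 and 4062, against 4513 to 6818 with a median of 5309 on the 16 arrays of the other RI strains. The BXH8 arrays were the 2 lowest of the 24. The difference was -0.45 log2 units (SE 0.11, 95% interval -0.67 to -0.22, limma's adjusted p = 0.0448), where 1.39% of genes were called in BXH8, and 0.604% as lower. The 2 other Scd2 probe sets also had their lowest strain mean in BXH8. On 1415823_at BXH8 gave 2101 and 1967, against 2036 to 3681 in the other RI strains. On 1415824_at it gave 447 and 607, against 475 to 1400. Both of these overlapped the other strains, with differences of -0.45 (adjusted p = 0.132) and -0.66 (adjusted p = 0.408) in limma's fit over all probe sets. In that same fit 1415822_at had an adjusted p of 0.0789, so no Scd2 probe set was called there. The call came from the fit over genes.

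**Figure D3:**
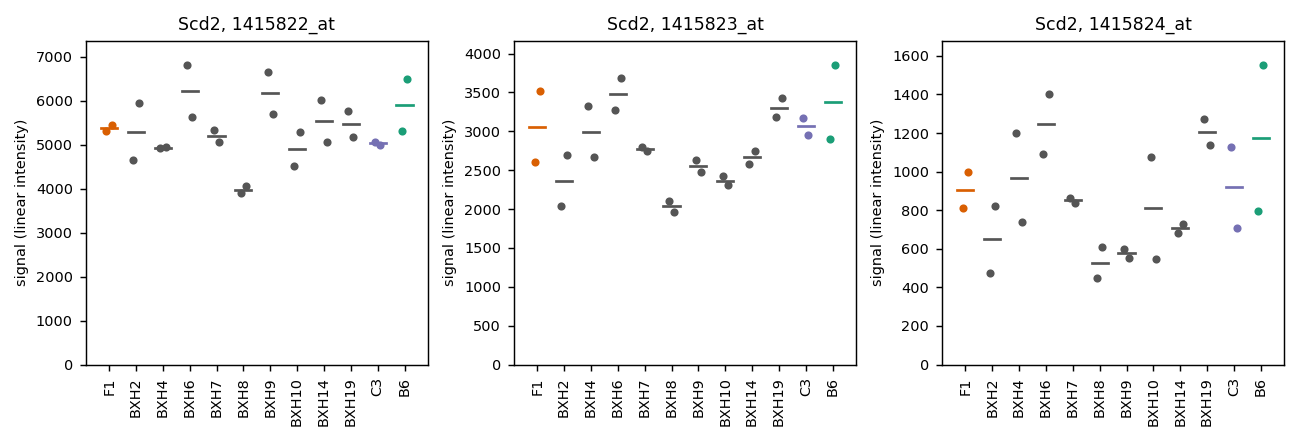
Signal (linear intensity, axes from 0) of the 3 Scd2 probe sets in each strain, with 1 point for each of the 2 arrays and a bar at their mean. BXH8 has the lowest mean on each set, without overlap on 1415822_at at 3895 and 4062, and with overlap on the other 2.

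The Scd2 call was fragile. It ended in 24 of 36 alternatives, with adjusted p from 0.0259 to 0.822, and 16 of those were single arrays left out. Without the first BXH8 array the difference was -0.42 (adjusted p = 0.393) and without the second -0.48 (adjusted p = 0.32). The adipose mean was 10.39 and 10.43 on the BXH8 arrays, against 8.89 to 10.30 on the other RI arrays, and the muscle mean was 11.14 and 10.85, against 6.55 to 11.73. Adipoq, the fat cell hormone adiponectin, was called higher in BXH8 (2.06 log2 units, adjusted p = 0.0461). With the adipose mean as a covariate Scd2 differed by -0.20 in BXH8 (limma's adjusted p = 0.822), and with the muscle mean by -0.47 (limma's adjusted p = 0.194). The BXH9 arrays, with adipose means of 10.04 and 10.30, read 6653 and 5691 for Scd2. Over the 12 strain means Scd2 and the adipose mean gave r = -0.18 (permutation p = 0.6), and r = 0.64 without BXH8 and BXH6. The first BXH8 array also held the liver signal given above, and Alb was 231 on the second. The part of these tissues in the Scd2 value was otherwise not tested.

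The genes did not all vary together, but Fasn and Acly did. Their strain means correlated at Pearson's r = 0.89 (n = 12 strains, permutation p = 5e-05, adjusted over the 15 gene pairs 0.00075) and Spearman's rho = 0.85 (permutation p = 0.00093, adjusted 0.0139). Without F1 and BXH10, the strains farthest from the median of Fasn, r was 0.81, and over the 9 RI strains alone it was also 0.81 (exact permutation p = 0.0087, adjusted 0.0652). The relation held within strains as well. The difference between the 2 arrays of a strain in Fasn correlated with that in Acly at r = 0.94 (n = 12, permutation p = 1e-05, the smallest these permutations can give, adjusted 0.00015) and rho = 0.87 (adjusted 0.0057), and at r = 0.87 without F1 and BXH2. The labels give array numbers no meaning beyond a name, so the sign of such a difference is taken as arbitrary. Fasn and Acly were higher on the same array in 9 of 12 strains. In F1, BXH2, BXH10 and BXH14 both genes were higher on the array with more Ucp1, and elsewhere Ucp1 stayed at 13.2 or less. The differences within strains in the adipose mean correlated with those in Fasn at r = 0.42 (permutation p = 0.17). For Acly r was 0.45 (permutation p = 0.148). The part of fat tissue in the relation of Fasn and Acly was not tested. Because strains share progenitor alleles, they are not fully independent points.

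**Figure D4:**
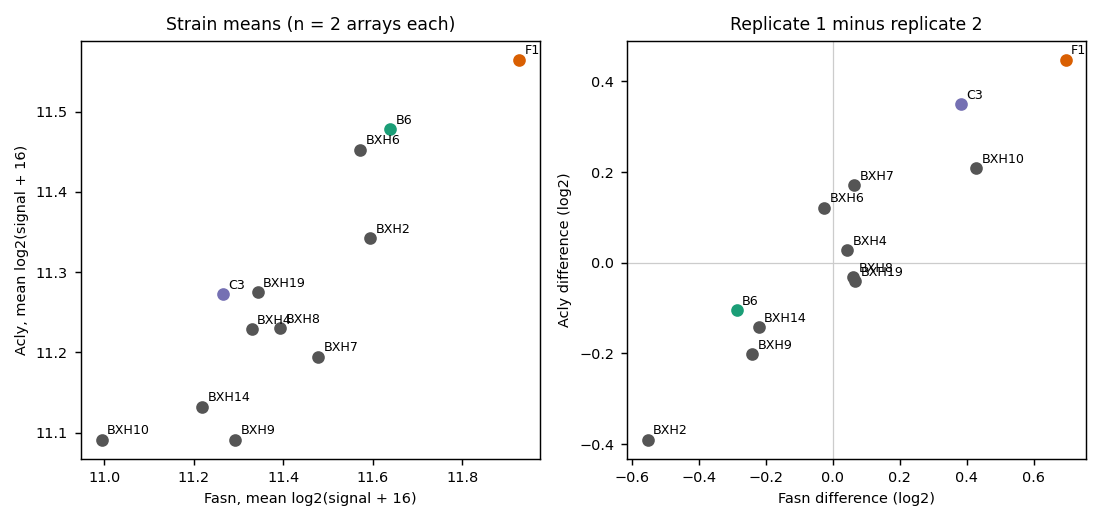
Fasn against Acly (log2 of signal + 16), as strain means and as differences between the 2 arrays of a strain, with 1 point per strain. Pearson's r is 0.89 for the means and 0.94 for the differences, and F1 lies at the high end.

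Among all 8279 other tested genes, Acly was the closest to Fasn over the 24 arrays (r = 0.91), over strain means and over the differences within strains. Fasn was rank 1, 2 and 1 for Acly in those 3 measures. The mean of all 5 Acly probe sets, which includes the 2 near 0, correlated with Fasn at 0.49, and the mean of those that passed the filter at 0.89. Scd1 and Fasn also passed over strain means, at r = 0.76 (n = 12, permutation p = 0.00439, adjusted 0.0329) and rho = 0.69 (adjusted permutation p = 0.078). Within strains their r was 0.17, so that relation did not hold between arrays of a strain. The number of called pairs was 1 in place of 2 without the second F1 array, and without the first array of BXH7, BXH8 or C3 or either array of BXH10 or BXH19.

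Srebf1 was not called with any enzyme after adjustment over the 15 gene pairs. Its strain means correlated with those of Fasn at r = 0.08 and rho = 0.06 (n = 12, permutation p = 0.814 and 0.869) and with those of Acly at r = -0.01 and rho = -0.08 (permutation p = 0.977 and 0.818), and 0 of its 5 pairs passed at an unadjusted or an adjusted permutation p of 0.05. The differences within strains gave r = -0.48 for Fasn (permutation p = 0.116) and -0.56 for Acly (permutation p = 0.0576), and, in the other direction, r = 0.55 (permutation p = 0.0623) and rho = 0.66 (permutation p = 0.0216, adjusted 0.162) for Me1.

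The lipogenic genes were also set against the mean of the markers of 2 cell types. The other marker lists, such as the type 1 and club cell, were not tested in this way. A relation below is therefore not shown to be particular to 1 cell type. With the 15 markers of the type 2 cell, 2 of 6 genes passed over strain means, Scd1 at r = 0.82 (n = 12, permutation p = 4e-04, adjusted over 12 comparisons 0.0048) and Fasn at r = 0.77 (permutation p = 0.00196, adjusted 0.0118). Spearman's rho was 0.73 for Scd1 (adjusted permutation p = 0.055) and 0.86 for Fasn (adjusted permutation p = 0.00876), and without the 2 farthest strains r was 0.72 and 0.73. Over all tested genes outside the list the median r was -0.03, and 0.0605% exceeded Scd1 and 0.169% exceeded Fasn. The widest gap among the strain means of the list set 4 strains (F1, BXH2, BXH6 and BXH7), at 12.63 to 12.67, apart from 8 at 12.45 to 12.52. The type 1 cell mean was also highest in these 4 strains, at 12.25 to 12.48 on their arrays, against 11.90 to 12.24 on all others. Within the 8 strains with the lower type 2 mean, r with that mean was 0.53 (exact permutation p = 0.199) and rho 0.36 (exact permutation p = 0.389) for Scd1. For Fasn r was 0.58 (exact permutation p = 0.127) and rho 0.81 (exact permutation p = 0.0218). Within strains it did not hold for Fasn (r = -0.17), and for Scd1 r was 0.67 with all strains and -0.08 without BXH4 and BXH6. Without the first BXH10 array the Fasn value was 0.44 (adjusted permutation p = 0.538) and neither gene passed. The Fasn call also ended without either BXH4 array, the first BXH7, the second BXH8 or either C3 array. With quantile normalization it ended as well (r = 0.61, adjusted permutation p = 0.145). With the 10 adipose markers 0 of 6 genes passed, 0 also at an unadjusted permutation p under 0.05, and Fasn gave r = 0.35, or -0.01 without F1 and BXH10. Within strains Scd2 and the adipose mean gave r = -0.66 (n = 12, permutation p = 0.0188, adjusted 0.225) and rho = -0.73 (permutation p = 0.0103, adjusted 0.123), and r = -0.72 without BXH2 and B6, so the pair was not called after adjustment over 12 comparisons.

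**Figure D5:**
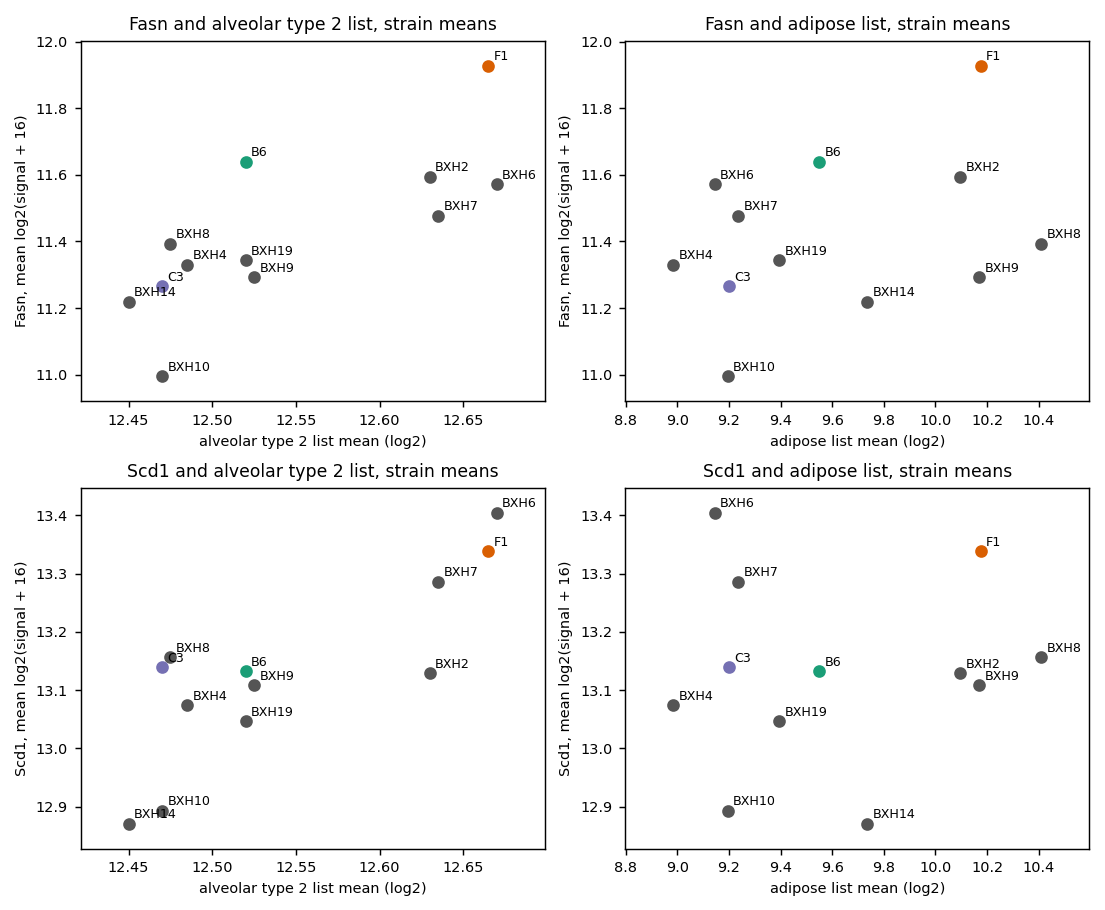
Strain means of Fasn and Scd1 (log2 of signal + 16) against the mean log2 signal of the type 2 cell markers and of the adipose markers, with 1 point per strain. Against the type 2 markers r is 0.77 for Fasn and 0.82 for Scd1, with 4 strains at 12.63 to 12.67, and against the adipose markers it is 0.35 and 0.06.

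The genes most like each lipogenic gene over the 24 arrays were found among the other tested genes by Pearson's r of log2 signal. Arrays of a strain share their genotype and every array its tissue mix, so these are descriptions. For Fasn they were Hadha, a subunit of the mitochondrial enzyme that oxidises fatty acids (r = 0.79), Gpd1, which makes glycerol phosphate (0.73), and Agpat3, an acyltransferase of phospholipid synthesis (0.73). For Acly they were Col4a3, a basement membrane collagen (0.79), Rnf130 (0.74) and again Agpat3 (0.74). For Scd1 they were Cxcl15, a chemokine of lung epithelium (0.79), Itga7, an integrin (0.78), and Tspo, a mitochondrial outer membrane protein (0.78). Scd2 was closest to Rnf6 (0.71), Elapor1 (0.69) and Spcs2, a signal peptidase subunit (0.67). Srebf1 was closest to Psmb3, a proteasome subunit (0.77), Gpn1 (0.74) and Mrps17, a mitochondrial ribosomal protein (0.74). Me1 was closest to Phka1, a subunit of phosphorylase kinase (0.71), Araf, a kinase (0.71), and Gfpt1, which starts hexosamine synthesis (0.70).

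Other genes of the pathway are read against the 10.5% of all genes that passed over the 12 strains. Of 19 tested partners in fatty acid synthesis (25 listed), 1 passed over the 12 strains, Acss2, which makes acetyl-CoA from acetate, with a range of 1.06 log2 units between 778 in BXH6 and 366 in BXH14 (limma's moderated F, adjusted p = 0.00597). It was also called higher in BXH6 against the other RI strains (0.69, adjusted p = 0.012), the strain with the highest Scd1 and Scd2 means. Of 15 tested genes of glycerolipid and phospholipid synthesis (17 listed), 1 passed, Lpin1, the phosphatidate phosphatase, with the range 2.15 between 1349 in BXH4 and 291 in BXH7 (adjusted p = 0.000592). Of 10 tested genes of SREBP processing (13 listed), 0 passed over the 12 strains in limma's test, and 2 had an unadjusted p under 0.05.

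Cholesterol synthesis, the other branch that SREBP proteins control, had 4 of 17 tested genes (23 listed) past the threshold, against the 10.5% of all genes. Sc5d, sterol desaturase, had the smallest adjusted p (1.31e-06), at 748 in BXH7 and 228 in BXH4, and was the one gene of the list called between progenitors, at -1.21 log2 units for C3 minus B6 (adjusted p = 0.000164). Msmo1, a sterol demethylase subunit, ranged from 357 in BXH10 to 866 in BXH19 (adjusted p = 0.00641), Idi1, an isomerase, from 525 in BXH10 to 950 in BXH9 (0.00585), and Hmgcs1, HMG-CoA synthase, from 1759 in BXH4 to 3372 in BXH14 (0.0119). BXH10, lowest for Idi1 and Msmo1, was also lowest for Fasn. Against the other RI strains 0 of the 17 genes were called in BXH10 in limma's fit, where 1.47% of all genes were. The median difference of the list there was 0, and Sc5d was higher by 0.40. Fasn was not called in BXH10 either (-0.41, limma's adjusted p = 0.282).

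The tissue marker lists are read against the same 10.5% of all genes that passed over the 12 strains in limma's test. Of 15 tested type 2 cell genes 3 passed (Abca3, the lamellar body lipid transporter, Hc and Ctsh). So did 6 of 10 tested adipose genes, 7 of 12 muscle genes and 6 of 8 alveolar macrophage genes. The counts were 0 of 7 type 1 cell, 0 of 7 club cell and 0 of 3 liver genes, lists too short to tell 0 from that share. At an unadjusted p under 0.05 these last 3 lists held 3, 2 and 1 genes, as 2120 of all 8280 genes had. In F1 against the progenitors' mean the median difference was 0.11 for the 6 lipogenic genes, 0.11 for the partners and 0.77 for the adipose genes, beside -0.02 over all genes. No gene of these 3 lists was called by limma, where 0.0242% of all genes were. At an unadjusted p under 0.05 the lists held 1 of 6, 1 of 19 and 7 of 10 genes, as 676 of all 8280 genes had. The median was 0.32 for the club cell list, 0.22 for the type 2 cell, 0.18 for muscle and 0.15 for the type 1 cell in the same contrast, and -0.03 for the macrophage and -0.21 for the liver list.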

How the data were processed

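Total RNA of 24 lung samples was measured on Affymetrix Mouse 430A arrays, per the labels' protocols. The values used are the deposited intensity values on a linear scale, 1 per probe set and array; their mean without the outer 2% at each end is 500.1 on every array, and the labels name no software, scaling or background step. Of 22690 probe sets, 64 are controls, 20380 carry 1 gene symbol, 691 several and 1555 none. Samples were grouped by strain from their titles.

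Signals were taken as log2(signal + 16). Genes were represented by their brightest probe set among the brightest 60% (a typical signal of at least 169), which left 8280 genes. limma 3.58.1 in R 4.3.3 (lmFit and eBayes with a trend) was fitted with 12 strains as groups, and Benjamini-Hochberg adjustment ran over all genes within a contrast, at a threshold of 0.05. A second fit used all 22626 probe sets other than controls. The fit was tested on simulated data. Correlations used 100000 two-sided permutations, or all orders for 9 or fewer strains. Array numbers were not used to pair samples in the main fit. Deviations of same-numbered arrays correlated at -0.3 to 0.34 over 66 pairs of strains, 22 of them above 0.1. These values cannot tell whether some strains shared a batch.

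The lipogenic genes and all lists were chosen with earlier results of these data known. Named genes are the lipogenic genes, the 3 genes most like each, and per list those called (at most 4) with up to 3 defining genes. Alternatives covered normalization, offset, filter, probe sets, the variance trend, tissue covariates, array number and each array left out. Of the named genes, the markers Cidea, Fabp4, Cox8b, Cox7a1 and Alb were chosen after their values were seen.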

Additional observations from a re-analysis of the deposited data

How the results depend on the processing

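Over 1171 comparisons of a result with an alternative, 1006 were taken as the same. For a single value this meant the same direction and side of the threshold, and for a count an equal or similar number. Many of these values were of differences that were not called. The Scd2 call in BXH8 stayed in 12 of 36 alternatives. The count of lipogenic genes called for C3 minus B6 and for F1 minus the progenitors' mean was 0 in all 36 alternatives each. Over the 12 strains it was 0, but 1 with quantile normalization (Scd1) and 2 with the mean of a gene's probe sets (Scd1 and Me1), and 0 to 1 with single arrays left out (Fasn without the second F1 array, adjusted p = 0.0442 in limma's fit). Among the RI strains it was 0, but 1 with either of those settings. The calls in RI strain contrasts, 1, became 2 with either of those settings and 0 with median centring, no filter, no variance trend, the replicate block, either tissue covariate or only the 18 RI arrays, and ran from 0 to 1 with arrays left out. Scd2 in BXH8 was called with quantile normalization (limma's adjusted p = 0.047). With the mean of probe sets it was not (limma's adjusted p = 0.069), so the 2 calls there were other ones. The replicate block changed no other call. The lipogenic probe sets called, 1, became 2 with median centring or an offset of 1, 0 without the trend, and 0 to 3 with arrays left out. The correlated pairs, 2, became 1 with the mean of probe sets, 0 with the 9 RI strains only, and 1 to 4 with arrays left out (1 without the second F1 array, the first BXH7, first BXH8, first C3, or any BXH10 or BXH19 array, and 4 without the second BXH2 array). The genes correlated with type 2 cell markers, 2, became 1 with quantile normalization (Fasn was not called), 1 with the mean of probe sets, 1 with the mean of probe sets that passed the filter (chosen after seeing the data), and 0 to 3 with arrays left out.

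Values that changed sign were all of uncalled differences. For C3 minus B6, Scd1 (0.01) gave -0.03 with muscle markers as a covariate, -0.06 with averaged probe sets, and -0.12 to 0.13 with arrays left out. Me1 (0.01) gave -0.01 with quantile normalization, -0.17 with the mean of probe sets, 0 with the muscle covariate, and -0.17 to 0.18 with arrays left out. Srebf1 (0.03) gave -0.16 to 0.22 with arrays left out. For F1, Scd1 (0.20) gave -0.03 with quantile normalization. Scd2 (-0.02) gave 0.03 with median centring, 0.20 with the adipose covariate, and -0.09 to 0.05 with arrays left out. Acly (0.19) gave -0.03 to 0.41 with arrays left out, the lowest without the first F1 array. Me1 (0.04) gave -0.08 with the adipose covariate and -0.05 to 0.13 with arrays left out. The cause was not tested. Having 2 arrays a strain limits the precision.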
